A study of Arabidopsis thaliana with 12 samples.

Results

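A set of 63 genes had at least 2-fold lower mean levels in stressed than in non-stressed cat2-2 seedlings of Arabidopsis thaliana, with pakerine as well as without it. The members were chosen by the authors' group means in CPM (the reads counted to a gene, scaled to the reads of its library). A gene belonged to the set when log2((stressed + 1)/(non-stressed + 1)) was at or below -1 in mock-treated plants and also in pakerine-treated plants. Of 21882 genes in the table, 63 met both conditions (0.288%). The stress ratio was at or below -1 for 225 genes (1.03%) in mock-treated plants and for 149 genes (0.681%) in pakerine-treated plants. The set therefore held 28% of the first list and 42.3% of the second.

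Messenger RNA was measured in 12 libraries of cat2-2 plants, a mutant line in CATALASE2, which encodes the main peroxisomal catalase of leaves. Stress + Pakerine plants received 10 µM pakerine, a sulfonamide found in a chemical screen, and then 2 days of photorespiratory stress in sealed plates under 24 h light. Stress plants received the solvent DMSO and the same stress, Pakerine plants received 10 µM pakerine under 16 h light a day, and DMSO plants received the solvent under 16 h light a day (3 libraries in each group). All groups carried cat2-2, so no wild type was compared, and treatments started on day 7 in liquid medium, 4 days before the stress. Stressed plants were 2 days older at harvest and saw longer light in sealed wells, and these differences cannot be told apart from the stress itself. The labels of 6 of the 12 libraries disagree between title and treatment fields, so the group headings of the deposited table were used. CAT2 itself was read in every group, at 76.1 CPM in Stress and 19.5 CPM in DMSO, and at 108 CPM in Stress + Pakerine and 37.2 CPM in Pakerine.

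Library sizes recovered from the smallest values of the table lay between 28472237 and 33512707 reads. Only the group means were used, with no value of a single library. A difference could therefore not be set against the spread between libraries, no test was run, and every fold is a description of 4 means. Intervals given below are 95% counting intervals (exact, conditional on the reads behind both means), and they cover counting error only. The labels give leaf as the tissue. In such bulk RNA, fewer cells of a type and less RNA per cell cannot be told apart. Of 3 leaf markers, RBCS1A stood at 8400.0 CPM in Stress and 8277 CPM in DMSO, and 8958 CPM in Stress + Pakerine and 9426 CPM in Pakerine. RCA stood at 5302 CPM in Stress and 3319.6 CPM in DMSO, and 6100.4 CPM in Stress + Pakerine and 4298 CPM in Pakerine. LHCB1.1, whose reads may be shared with near-identical copies, stood at 179 CPM in Stress and 126 CPM in DMSO, and 274 CPM in Stress + Pakerine and 53.6 CPM in Pakerine. Their median log2 stress ratios were 0.50 without pakerine and 0.51 with it, and that of LHCB1.1 alone was 2.33 with it. Of 13 root markers, PYK10 stood at 622 CPM in Stress and 1547 CPM in DMSO, and 1024 CPM in Stress + Pakerine and 1837 CPM in Pakerine, and LRX1 at 3.07 CPM in Stress and 5.14 CPM in DMSO, and 17 CPM in Stress + Pakerine and 22.2 CPM in Pakerine. The summed level of the root list, most of it PYK10, was 700.3 CPM in Stress and 1641 CPM in DMSO, and 1183 CPM in Stress + Pakerine and 2013 CPM in Pakerine. In each background 11 of the 13 root genes had a stress ratio below 0 (of all 21882 genes, 12505 without pakerine and 11842 with it). The lowest level was that of SMB, at 0.149 CPM in Stress and 0.257 CPM in DMSO, and 1.1 CPM in Stress + Pakerine and 1.57 CPM in Pakerine. With pakerine the root list was higher. Its median log2 ratio was 1.03 for Pakerine over DMSO (7 of 13 genes at or above 1, all genes 1.38%). For Stress + Pakerine over Stress it was 0.94 (6 of 13, all genes 1.65%). The part of these markers in the levels and pakerine ratios of the members was not tested.

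Photorespiration starts when Rubisco fixes oxygen in place of carbon dioxide. The pathway releases hydrogen peroxide in peroxisomes, where catalase removes it, and ammonium in mitochondria, which has to be reassimilated. Nitrate reductase and asparagine synthetase stand at the entry of nitrate nitrogen into leaf metabolism and at its storage and transport form. Aquaporins, cell wall enzymes, SAUR proteins and cytokinin response regulators are known for their parts in water flow, expansion and growth control of young leaves.

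The members ranged widely in how far they were lowered. In mock-treated plants their log2 stress ratios ran from -2.47 to -1.0 with a median of -1.20, against a median of -0.05 over all 21882 genes. In pakerine-treated plants they ran from -3.17 to -1.0 with a median of -1.33, against -0.03 over all genes. These ratios selected the members, and nothing is read from their size. AT4G36850 was the only member at or below -2 in both backgrounds, and 9 members were at or below -1.5 in both. The 63 genes together took 3869 CPM in Stress and 9404 CPM in DMSO, and 3471 CPM in Stress + Pakerine and 9228 CPM in Pakerine. The 10 members with the most reads made up 75.6% of that sum in DMSO. At the other end, 16 members averaged under 10 CPM in the non-stressed groups.

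**Figure D1:**
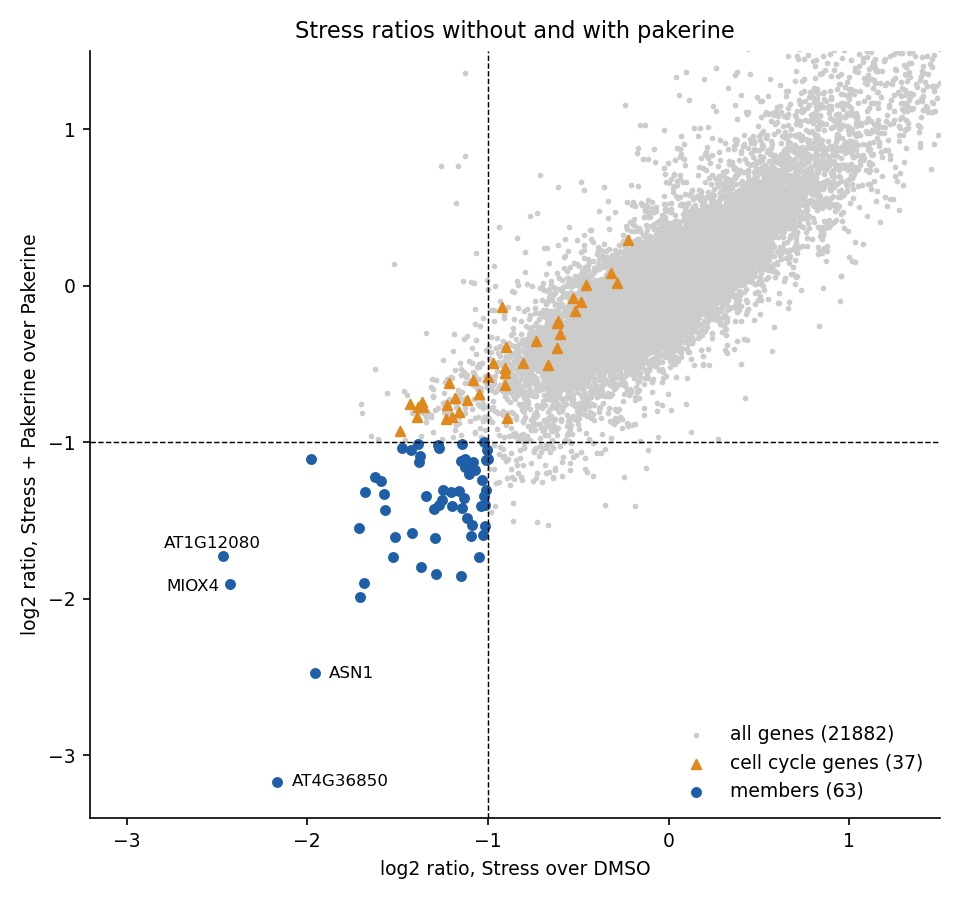
Each point is a gene, with the log2 ratio of Stress over DMSO on the x axis and of Stress + Pakerine over Pakerine on the y axis (1 CPM added to each mean). The 63 members fill the corner below both dashed lines at -1, the 37 cell cycle genes (triangles) lie above the lower line, and 344 of the 21882 genes fall outside the axes.

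Genes of nitrate and amino acid metabolism formed the group with the most reads. NIA1, a cytosolic nitrate reductase, averaged 711 CPM in Stress and 1695 CPM in DMSO, and 659 CPM in Stress + Pakerine and 1705 CPM in Pakerine. The stressed mean was 42% of the non-stressed mean in mock-treated plants (interval 41.6 to 42.3%) and 38.7% in pakerine-treated plants (38.3 to 39%), and the 2 non-stressed means were nearly equal. Its paralog NIA2, which carries most nitrate reductase activity of Arabidopsis leaves, was outside the set at 2377 CPM in Stress and 2821 CPM in DMSO, and 2685 CPM in Stress + Pakerine and 3326 CPM in Pakerine. NIR1, the nitrite reductase that acts next, had log2 ratios of -0.47 and -0.68, and UPM1, which makes a precursor of its siroheme cofactor, had -0.82 and -1.05. BT1, a BTB and TAZ domain protein of a family known for its role in nitrate use, averaged 212 CPM in Stress and 454 CPM in DMSO, and 166 CPM in Stress + Pakerine and 504 CPM in Pakerine. Of the other 4 BTB and TAZ genes, BT2 came closest to the thresholds (-0.56 and -0.87), while BT3 was higher under stress (1.04 and 1.08). Of 18 measured genes of nitrate uptake and reduction, 2 were members, 2 had a ratio at or below -1 in mock-treated plants and 3 in pakerine-treated plants. The list also held 2 genes at or above 1 in each background, NRT3.1 and NRT1.8. Over all 21882 genes, 1.03% were at or below -1 without pakerine and 0.681% with it, and 623 and 719 genes were at or above 1.

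Of 4 genes annotated as asparagine synthases, a family chosen after values were seen, ASN1 and ASN2 were in the set (all genes 0.288%). ASN1, the dark-inducible enzyme that makes asparagine from glutamine, averaged 126 CPM in Stress and 493 CPM in DMSO, and 46.9 CPM in Stress + Pakerine and 265 CPM in Pakerine. It differed in all 4 means, with 25.6% of the DMSO level in Stress (25.1 to 26.1%) and 17.7% of the Pakerine level in Stress + Pakerine (17.1 to 18.3%). ASN2 averaged 294 CPM in Stress and 594 CPM in DMSO, and 296 CPM in Stress + Pakerine and 733 CPM in Pakerine, and its stressed means were alike with and without the compound. The third isoform, ASN3, had log2 ratios of -0.30 and -0.15. MCCA, the biotin-containing subunit of the methylcrotonyl-CoA carboxylase of leucine breakdown, stood at 117 against 261 CPM without pakerine and 61.4 against 225 CPM with it. The other subunit gene, MCCB, missed the set narrowly in mock-treated plants (-0.97) and had a ratio of -1.17 in pakerine-treated plants. CAT6, an amino acid transporter and no catalase, had 11.3 against 23.9 CPM without pakerine and 10.6 against 32.7 CPM with it.

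MIOX4 and ICL stood for sugar and organic acid metabolism. MIOX4, a myo-inositol oxygenase, which opens the inositol ring to glucuronic acid, averaged 5.12 CPM in Stress and 31.9 CPM in DMSO, and 3.22 CPM in Stress + Pakerine and 14.8 CPM in Pakerine. Its level in Stress was 16% of that in DMSO (14.5 to 17.7%). MIOX2, the gene of the family with the most reads, was lower by less (-0.76 and -1.13), and MIOX1 had -0.24 and -0.18. ICL, isocitrate lyase of the glyoxylate cycle, was a low-level member at 0.712 against 3.42 CPM without pakerine and 1.53 against 7.81 CPM with it, with 67 reads behind the Stress mean. Of 28 measured carbon starvation genes, ASN1, MCCA and MIOX4 were members. In that list 3 genes were at or below -1 in mock-treated plants (all genes 1.03%) and 10 in pakerine-treated plants (all genes 0.681%). DIN10 (-0.64 and -1.22) and SEN1 (-0.25 and -1.23) were among those below -1 with pakerine alone.

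**Figure D2:**
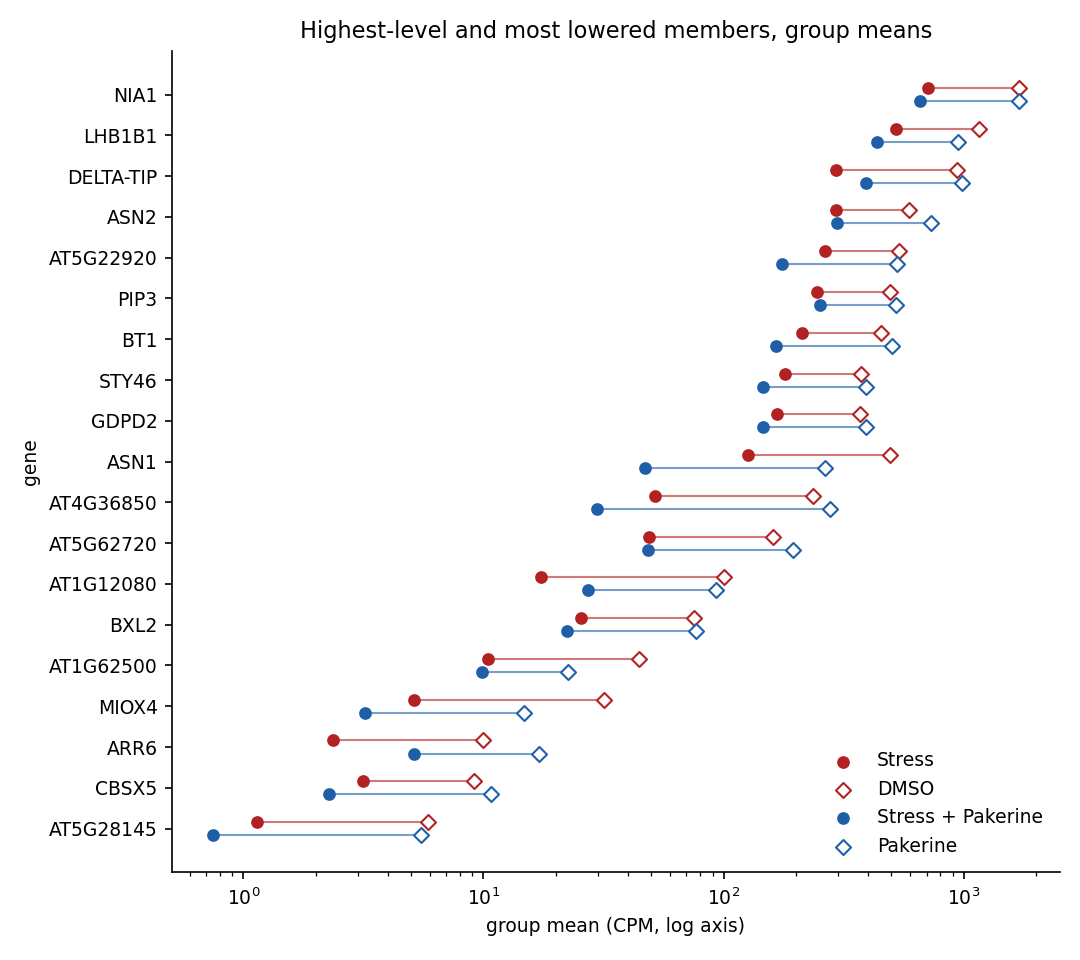
Group means in CPM on a log axis for the 19 members with the highest non-stressed means or the lowest summed log2 ratios, with filled circles for the stressed and open diamonds for the non-stressed group. Red is without pakerine and blue with it, and the filled symbol lies left of the open one on every line, as the rule requires.

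Water channels and other membrane proteins included the member with the lowest ratio with pakerine and the lowest sum of both ratios. This was AT4G36850, a PQ-loop transmembrane protein, which averaged 51.6 CPM in Stress and 235 CPM in DMSO, and 29.8 CPM in Stress + Pakerine and 276 CPM in Pakerine. That was 22% of the non-stressed level without pakerine (21.3 to 22.7%) and 10.8% with it (10.4 to 11.2%). DELTA-TIP (TIP2;1), an aquaporin of the vacuole membrane, stood at 293 CPM in Stress and 942 CPM in DMSO, and 392 CPM in Stress + Pakerine and 980.3 CPM in Pakerine, so the Stress mean was the lowest of the 4. PIP3 (PIP2;7), an aquaporin of the plasma membrane, sat just inside both thresholds with 244 against 491 CPM without pakerine and 251 against 521 CPM with it. Among all 31 aquaporin genes in the table, only these 2 were at or below -1 in either background (all genes 1.03% without pakerine and 0.681% with it). Another 2 came close in both, TIP2 (-0.87 and -0.91) and PIP1C (-0.94 and -0.95). AT1G12080, annotated as related to a vacuolar calcium-binding protein, had the lowest mock ratio of the table, with 17.4 against 101 CPM without pakerine and 27.4 against 93 CPM with it. AT5G62720, an HPP family membrane protein, had 48.7 against 161 CPM without pakerine and 48.3 against 195 CPM with it. ABCG15, an ABC transporter, and AT3G05150, of the major facilitator superfamily, were lower-level members at 4.05 against 14 CPM without pakerine and 4.18 against 12 CPM with it and at 1.69 against 6.99 CPM without pakerine and 2.66 against 8.86 CPM with it.

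Per kilobase of exon, which allows levels of different genes to be set side by side, DELTA-TIP and LHB1B1 stood highest among the members. DELTA-TIP had 246 CPM per kilobase in Stress and 792 CPM per kilobase in DMSO, and LHB1B1 399 CPM per kilobase in Stress and 885 CPM per kilobase in DMSO. NIA1, with 3155 exonic bases, had 225 CPM per kilobase in Stress and 537 CPM per kilobase in DMSO.

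Cell wall members were 4 in number. BXL2, a beta-xylosidase of the cell wall, had 25.6 against 75.4 CPM without pakerine and 22.3 against 76.6 CPM with it. PME5, a pectin methylesterase, had 16 against 50.2 CPM without pakerine and 16.5 against 40.7 CPM with it, and the arabinogalactan protein AGP21 had 32.7 against 67.6 CPM without pakerine and 39.9 against 80.8 CPM with it. The hydroxyproline-rich glycoprotein AT1G31310 was the lowest of them, at 2.47 against 9.69 CPM without pakerine and 2.08 against 6.18 CPM with it. Expansins and xyloglucan endotransglucosylases, the wall-loosening families, gave no member among 15 and 22 measured genes. Members were 0.288% of all genes, so nothing is read from their absence in lists of this size.

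The 4 cytokinin and auxin response members, grouped after their values were seen, had higher means with pakerine than without it, both under stress and without stress. Under stress the counting interval of AT4G34790 included no difference (96.1 to 133%). The same direction was common among their relatives. Of 9 type-A response regulators, 1 was lower in Pakerine than in DMSO and 0 were lower in Stress + Pakerine than in Stress. Of 67 SAUR genes 11 and 19 were lower, and of all 21882 genes 11758 and 10133. The 67 were collected by name and include AT5G01830, which is named SAUR21 but described as an ARM repeat protein. ARR6 and ARR7 are type-A response regulators, which are induced by cytokinin and dampen its signal. ARR6 averaged 2.36 CPM in Stress and 10.00 CPM in DMSO, and 5.15 CPM in Stress + Pakerine and 17 CPM in Pakerine, and ARR7 8.8 CPM in Stress and 19.8 CPM in DMSO, and 10.2 CPM in Stress + Pakerine and 31.1 CPM in Pakerine. Pakerine over DMSO gave log2 ratios of 0.71 for ARR6 and 0.63 for ARR7, and Stress + Pakerine over Stress gave 0.87 and 0.19. Of the other 7 type-A genes none reached -1, with ARR5 closest at -0.82 and -0.67. A pair of nearby SAUR genes on chromosome 4, AT4G34760 (SAUR50) and AT4G34790 (SAUR3), were members at 9.79 against 22.7 CPM without pakerine and 13.5 against 36.1 CPM with it and at 3.03 against 8.72 CPM without pakerine and 3.43 against 10.7 CPM with it. SAUR genes encode small proteins that auxin induces within minutes in many tissues and that promote cell expansion. Between these 2 loci lies AT4G34770, outside the set at -0.61 and -0.48, and next to them AT4G34800 had -0.86 and -0.70. Over all 67 SAUR genes in the table, 2 were at or below -1 in mock-treated plants (all genes 1.03%) and 9 in pakerine-treated plants (all genes 0.681%). The 1 CPM added to each mean shrinks the ratios of low genes. These 2 counts are therefore no measure of a difference between backgrounds. Without that 1 CPM, Stress was 38% of DMSO for SAUR19 (1.36 CPM in DMSO) and 33.6% for SAUR23 (1.79 CPM in DMSO). Both passed -1 with pakerine alone. SAUR28, at 0.767 CPM in DMSO, could not have reached -1 in mock-treated plants.

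Light and cold genes were LHB1B1, COR27 and AT4G25580. LHB1B1 (LHCB1.4), a chlorophyll-binding protein of the photosystem II antenna, averaged 524 CPM in Stress and 1161 CPM in DMSO, and 436 CPM in Stress + Pakerine and 949 CPM in Pakerine. Of its 18 measured antenna genes, LHB1B1 was the member, with LHCB1.2 at -1.31 in mock-treated plants and -0.70 in pakerine-treated plants. Exact copies of 75 bases were found for 7.27% of the LHB1B1 stretches, in genes that included its neighbour LHCB1.5. Reads of the LHCB1 genes may have been split between copies. Such copies were also found for the members AT3G59930 (19.2% of stretches), AT7SL-1 (16.7%) and TPX2 (4.47%). COR27, a cold-regulated gene that is also a known repressor within the circadian clock, had 47.6 against 108 CPM without pakerine and 32.7 against 82.8 CPM with it. AT4G25580 is annotated as a CAP160 protein, named for a cold-acclimation protein of spinach. It had 2.48 against 8.95 CPM without pakerine and 0.399 against 3.26 CPM with it, so that each treatment went with a lower mean, and its Stress + Pakerine mean rested on 38 reads. The lists of 31 clock genes and outputs and of 12 measured cold and dehydration genes held no member, but neither list includes COR27 or AT4G25580. Members were 0.288% of all genes, so nothing is read from the absence.

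The 4 redox and detoxification members, grouped after their values were seen, had higher means with pakerine than without it, under stress and without stress. Of all 21882 genes, 10119 were higher in Pakerine than in DMSO and 11748 in Stress + Pakerine than in Stress. In the same 2 comparisons, 1 and 0 of 17 aliphatic glucosinolate genes, a list that holds GSTU20, were lower. Of 27 tau glutathione transferase genes, 12 and 11 were lower. GSTU20, a tau glutathione transferase linked to aliphatic glucosinolate synthesis, averaged 55.1 CPM in Stress and 146 CPM in DMSO, and 75.9 CPM in Stress + Pakerine and 154 CPM in Pakerine. Among 27 tau genes it was the only gene at or below -1 in either background (all genes 1.03% without pakerine and 0.681% with it). Nothing is read from 1 gene in a family of this size. At or above 1 lay 6 of them in mock-treated plants and 8 in pakerine-treated plants (623 and 719 of all 21882 genes). TPX2 is here the thioredoxin-dependent peroxidase gene AT1G65970, not the mitotic gene of the same symbol, and had 5.18 against 15.6 CPM without pakerine and 7.02 against 23 CPM with it. FLS5, a flavonol synthase family gene, had 4.3 against 12.4 CPM without pakerine and 7.35 against 20.3 CPM with it. The Rossmann-fold protein AT2G29310 had 30.2 against 61.7 CPM without pakerine and 30.9 against 68.1 CPM with it, and under stress its counting interval for pakerine over mock included no difference (97.3 to 108%). Phosphate and lipid genes comprised the glycerophosphodiester phosphodiesterase GDPD2 at 167 against 369 CPM without pakerine and 145 against 390.4 CPM with it, the purple acid phosphatase PAP3 at 6.42 against 15 CPM without pakerine and 8.54 against 21 CPM with it, the oxysterol-binding protein ORP4C at 4.41 against 10.7 CPM without pakerine and 3.17 against 10.7 CPM with it, and 2 genes known by their domains. Of these, the lipid-transfer protein AT1G62500 had 10.5 against 44.3 CPM without pakerine and 9.87 against 22.4 CPM with it, and the alpha/beta-hydrolase AT1G52750 had 3.43 against 9.69 CPM without pakerine and 7.39 against 16.2 CPM with it.

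Kinase, ubiquitin and other domain proteins made up 8 members. AT5G22920 (RZPF34), a RING zinc-finger protein of the kind that tags others with ubiquitin, averaged 264 CPM in Stress and 539.6 CPM in DMSO, and 175 CPM in Stress + Pakerine and 528 CPM in Pakerine. STY46, a protein kinase known to phosphorylate chloroplast precursor proteins, averaged 181 CPM in Stress and 373 CPM in DMSO, and 146 CPM in Stress + Pakerine and 390.2 CPM in Pakerine. The leucine-rich repeat protein AT2G15880 had 49.8 against 110.2 CPM without pakerine and 24.5 against 56 CPM with it, CBSX5, with its CBS domains, had 3.15 against 9.12 CPM without pakerine and 2.27 against 10.7 CPM with it, and the actin family gene AT2G42170 had 10.7 against 26.8 CPM without pakerine and 8.56 against 22.6 CPM with it. AT1G68110 of the ENTH/ANTH/VHS superfamily (3.98 against 8.97 CPM without pakerine and 3.92 against 9.62 CPM with it), the F-box protein AT2G43445 (3.76 against 9.07 CPM without pakerine and 3.07 against 7.89 CPM with it) and the ankyrin repeat protein AT1G11740 (0.982 against 4.33 CPM without pakerine and 2.27 against 5.78 CPM with it) all had non-stressed means under 10 CPM. Secreted and defence-like proteins made up 6 members, led by the mannose-binding lectin AT1G52100 at 54.6 against 120.2 CPM without pakerine and 38.9 against 86.6 CPM with it. The knottin AT2G43550 had 17.1 against 38.4 CPM without pakerine and 21.2 against 47.7 CPM with it and the granulin-repeat protease AT3G19390 had 12.4 against 28.6 CPM without pakerine and 15 against 31.2 CPM with it. Both CAP superfamily genes were at the lower end of the table, AT4G33720 at 0.256 against 2.09 CPM without pakerine and 0.725 against 3.64 CPM with it and AT4G07820 at 0.33 against 2.06 CPM without pakerine and 1.15 against 4.37 CPM with it, with 24 and 31 reads behind their Stress means. The PLAC8 family gene AT5G35525 was similarly low (0.671 against 2.42 CPM without pakerine and 0.89 against 3.48 CPM with it). Counting error alone left AT4G33720 in Stress at 7.62 to 18.7% of DMSO.

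A pair of copia retrotransposon pseudogenes and a 7SL RNA gene, the RNA scaffold of the signal recognition particle, were also members. AT5G28145 averaged 1.14 against 5.89 CPM without pakerine and 0.744 against 5.52 CPM with it, and AT1G47520 7.36 against 17.1 CPM without pakerine and 6.9 against 16.4 CPM with it. AT7SL-1 had 7.08 against 20.0 CPM without pakerine and 7.8 against 18.2 CPM with it, and RefSeq labels it protein-coding. A further 11 members had no annotated function. Their summed level was 153 CPM in Stress and 354 CPM in DMSO, and 134 CPM in Stress + Pakerine and 345 CPM in Pakerine, and AT4G29905 alone had 78.6 against 160.2 CPM without pakerine and 61.1 against 163 CPM with it. AT5G16030 (19.7 against 52.6 CPM without pakerine and 20.0 against 43.7 CPM with it) and AT5G16250 (13.7 against 39.8 CPM without pakerine and 15.8 against 33.5 CPM with it) followed, both with a lower ratio without pakerine than with it. The reverse held for AT1G50040 (4.74 against 13.1 CPM without pakerine and 5.33 against 18.3 CPM with it), AT4G23870 (11 against 26.6 CPM without pakerine and 9.63 against 27.2 CPM with it) and AT3G43850 (2.75 against 6.78 CPM without pakerine and 1.25 against 6.51 CPM with it), whose ratios were lower with pakerine. AT1G33055, AT1G27670, AT5G01015, AT3G15440 and AT3G59930 completed the 11, with Stress means from 2.54 to 10.0 CPM and DMSO means from 6.58 to 23 CPM.

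**Figure D3:**
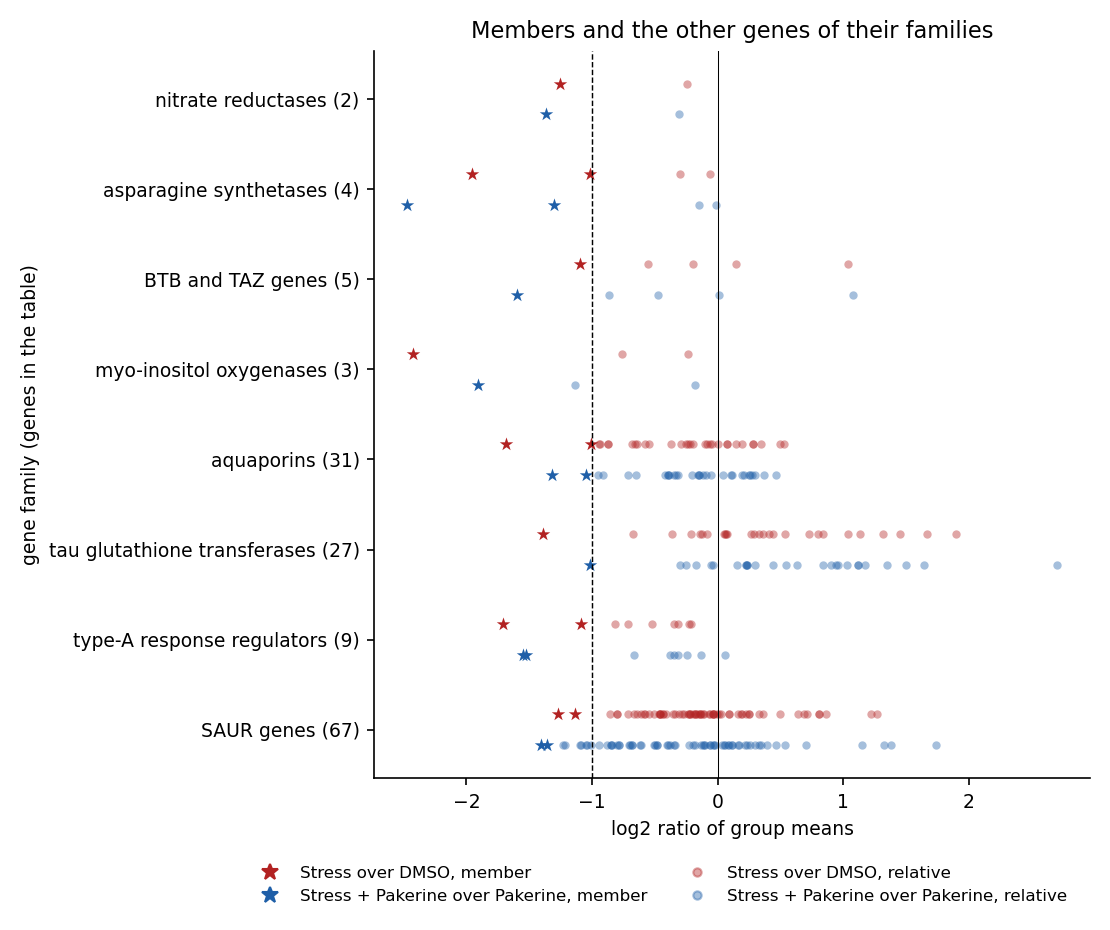
Log2 stress ratios of group means for members (stars) and for the other genes of 8 families (circles), without pakerine in red above and with pakerine in blue below, with the number of table genes in brackets. The dashed line at -1 is the threshold of the rule, which members pass in both backgrounds by definition. Several SAUR genes pass it in the pakerine-treated plants alone. The 1 CPM added to each mean shrinks the ratios of low genes, so this is no measure of a difference between backgrounds.

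The pakerine ratios of the members lay on both sides of 0. These ratios use the same 4 means that selected the genes and are given as a description. Without stress, Pakerine over DMSO had a median log2 ratio of 0.08 over the members and -0.01 over all genes. Under stress, Stress + Pakerine over Stress had a median of -0.01 over the members and 0.01 over all genes. At or below -1 lay 2 members in the first comparison (26 genes of the table, 0.119%) and 2 in the second (13 genes, 0.0594%). At or above 1 lay no member in either, against 301 genes of the table (1.38%) without stress and 362 (1.65%) under stress. Beyond 0.5 in size, 7 members were lower (11.1%, all genes 1.61%) and 10 higher (15.9%, all genes 5.75%) without stress, and 11 were lower (17.5%, all genes 0.941%) and 8 higher (12.7%, all genes 6.25%) under stress.

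Among members of at least 5 CPM in Pakerine or DMSO, the lowest Pakerine over DMSO ratios belonged to AT4G25580 (-1.23), MIOX4 (-1.06), AT2G15880 (-0.96) and AT1G62500 (-0.95). The highest belonged to ICL (0.99), ARR6 (0.71), AT1G52750 (0.69) and FLS5 (0.66). Under stress, among members of at least 5 CPM in Stress or Stress + Pakerine, ASN1 had the lowest log2 ratio (-1.41). Its Stress + Pakerine mean was 37.1% of the Stress mean (35.9 to 38.4%). Among the same members AT2G15880 (-0.99), MCCA (-0.92) and AT4G36850 (-0.77) came next, and AT1G52750 (0.92) and ARR6 (0.87) were highest. AT4G25580, below that level, had a log2 ratio of -1.31, with Stress + Pakerine at 16.1% of Stress (11.2 to 23.0%). AT2G15880 kept nearly the same pakerine ratio with and without stress, whereas AT4G36850 had a ratio of 0.23 without stress.

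**Figure D4:**
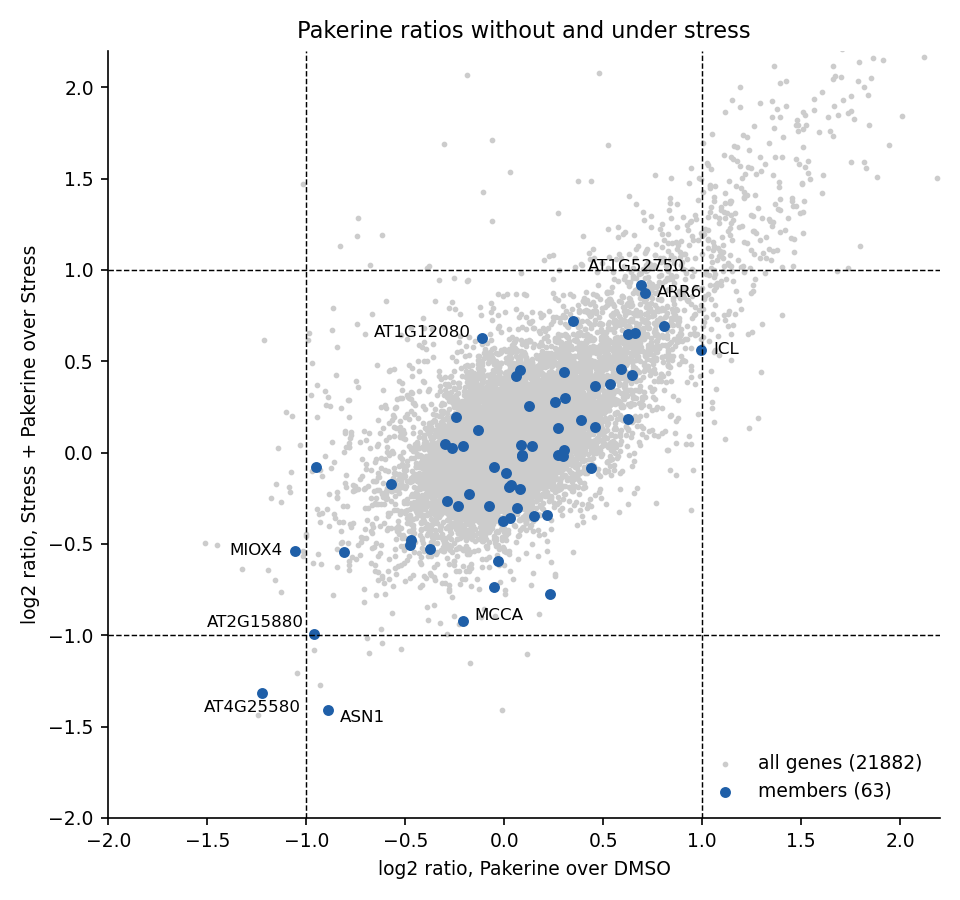
Log2 ratio of Pakerine over DMSO (x axis) and of Stress + Pakerine over Stress (y axis) for all genes (grey, 17 outside the axes) and the 63 members (blue). Dashed lines mark -1 and 1, with 2 members below -1 on each axis and none above 1.

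The lowest of the 4 means was that of Stress + Pakerine for 33 members and that of Stress for 30. The highest mean was in Pakerine for 38 members and in DMSO for 25. The stress ratio was lower with pakerine than without it for 43 members (68.3%, all genes 44.1%), and the 2 ratios lay within 0.5 of each other for 52 (82.5%, all genes 96.4%). The median difference was -0.10 over the members and 0.02 over all genes. Both ratios selected the members, so all genes are not a like reference here, and nothing is read from these differences. In 8 members the ratio with pakerine was lower by 0.5 or more, and these were AT4G36850 (-1.0), MCCA (-0.71), AT3G43850 (-0.68), AT5G22920 (-0.56), CBSX5 (-0.56), ASN1 (-0.52), CAT6 (-0.52) and BT1 (-0.50). In 3 it was higher by 0.5 or more, AT1G62500 (0.87), AT1G12080 (0.74) and MIOX4 (0.52). The difference itself could not be tested on group means.

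Other genes passed the threshold in a single background. In mock-treated plants alone, 162 genes passed, and their median ratio with pakerine was -0.72. In pakerine-treated plants alone, 86 passed, and their median ratio without it was -0.73. Of 37 cell cycle genes, 15 were at or below -1 in mock-treated plants (all genes 1.03%) and none in pakerine-treated plants (all genes 0.681%), so none was a member. KNOLLE, a syntaxin of the dividing cell plate, had 11.4 CPM in Stress and 32.6 CPM in DMSO, and 15.1 CPM in Stress + Pakerine and 26.3 CPM in Pakerine. The sulfur deficiency, hypoxia, stomatal lineage, root and meristem lists and the leaf markers also gave no member. With members at 0.288% of all genes, nothing is read from their absence in these short lists. Median stress ratios over the 31 aquaporins were -0.22 without pakerine and -0.15 with it, and over the 18 antenna genes -0.33 and 0.00. Over the 28 carbon starvation genes they were -0.35 and -0.82, against -0.05 and -0.03 over all genes.

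Near the threshold, values just inside belonged to AT1G68110 (-1.0 and -1.11), AGP21 (-1.02 and -1.0) and PIP3 (-1.01 and -1.05). Just outside stood GATA4 (-1.03 and -0.9993), JMJD5 (-0.99 and -1.17) and SULTR3;5 (-0.99 and -1.04). All 63 loci matched a RefSeq gene of TAIR10.1, 61 of them labelled protein-coding and 2 pseudogenes. They lay on chromosome 1 (19 genes), 5 (16), 4 (13), 3 (9) and 2 (6), and no pair was adjacent in the table. Exons of 11 members overlapped another annotated gene, in 1 case on the same strand (AT1G33055), and the strand used in counting is not given in the sources used here. Overlapping partners of 8 members were in the table, and the lowest of their stress ratios was -0.47 (HTA9, beside AT1G52750). ASN1 and ARR6 were among the 11, with partners that were not in the table (ASN1) or had log2 ratios of -0.26 and -0.18 (AT5G62910, beside ARR6).

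Promoter windows of 300 bases, from 250 before to 50 after the annotated gene start, were searched on both strands for 10 motifs. The I-box (GATAAG), found in promoters of light-regulated genes, occurred in 15 of 63 member windows (23.8%) and in 14.8% of 21730 windows of all table genes. The W-box (TTGACC) occurred in 11 (17.5%, all genes 14.3%), the site II element (TGGGCC) in 7 (11.1%, 18%), the G-box (CACGTG) in 6 (9.52%, 8.49%) and ABRE (ACGTGGC) in 5 (7.94%, 4.50%). The evening element (AAAATATCT) occurred in 3 (4.76%, 2.95%). The telo box (AAACCCTA), the mitosis-specific activator core (CCAACGG), the E2F site (TTTCCCGC) and the sulfur-responsive core (GGAGACA) occurred in 1 each (1.59%), against 5.55%, 2.11%, 0.819% and 2.76% of all windows. ABRE and G-box matches can share bases. A match is a description of the letters and was not tied to a factor.

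The 250 bases before the gene start are shown for 3 of the leading members with more than 1 I-box (RefSeq, TAIR10.1, 5′ to 3′ on the gene's strand). Capitals mark the I-box in either orientation. The windows are chr3:17441432-17441681 for ASN1 (minus strand), chr4:13297445-13297694 for MIOX4 (plus strand) and chr4:17998646-17998895 for STY46 (plus strand). Another annotated gene overlapped the window of ASN1 and that of STY46.
ASN1: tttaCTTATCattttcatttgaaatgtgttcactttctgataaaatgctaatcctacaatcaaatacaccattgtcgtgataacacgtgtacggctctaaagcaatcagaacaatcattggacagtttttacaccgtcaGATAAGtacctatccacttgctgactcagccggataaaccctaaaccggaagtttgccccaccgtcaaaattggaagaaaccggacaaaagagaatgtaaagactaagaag
MIOX4: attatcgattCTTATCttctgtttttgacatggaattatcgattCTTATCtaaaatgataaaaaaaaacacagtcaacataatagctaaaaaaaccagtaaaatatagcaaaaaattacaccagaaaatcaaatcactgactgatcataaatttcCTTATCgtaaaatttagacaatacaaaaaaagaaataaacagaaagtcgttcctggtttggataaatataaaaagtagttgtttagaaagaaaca
STY46: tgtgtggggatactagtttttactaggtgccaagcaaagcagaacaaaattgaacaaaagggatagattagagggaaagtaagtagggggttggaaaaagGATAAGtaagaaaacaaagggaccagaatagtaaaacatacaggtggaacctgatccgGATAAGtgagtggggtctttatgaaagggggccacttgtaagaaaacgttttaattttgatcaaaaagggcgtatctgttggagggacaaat
The window of MIOX4 held 3 I-boxes, and those of ASN1 and STY46 held 2 each. A link between these motifs and the stress ratios was not tested.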

How the data were processed

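Leaf RNA of 12 libraries (3 for each group) was sequenced by the authors as 75-bp single-end reads, trimmed with Trim Galore 0.3.3, aligned to TAIR10 with TopHat2 2.1.0 and counted per gene with featureCounts of Subread 1.4.6. The deposited table gives the authors' mean CPM per group for 21882 genes that passed 0.12 CPM in at least 3 samples, and the group means sum to 999887 to 999914 CPM. It also holds 19 columns of the authors' own comparisons (fold changes, p-values, FDR and calls), which were not used. Columns matched to no group numbered 0.

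Log2 ratios were computed from these means with a pseudocount of 1 CPM, so they understate the change of low genes, and percentages and intervals came from the means without it. Library sizes were recovered from the 3 smallest values of each group, and all values under 0.12 CPM came out as whole reads within 2e-08 CPM. The scripts were tested on simulated data. Since only the mean columns were used, and they hold no value of a single library, no test, replicate check or paired fit was made. Computations used Python 3.11.15, pandas 2.3.3 and scipy 1.17.1.

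The members and gene lists were chosen with earlier results of these data known, and the roles and families after values were seen. Genes were named by rule. These were the 10 with the highest non-stressed means, the 10 with the lowest summed log2 ratios (at least 5 CPM in DMSO and in Pakerine), members of the gene lists, 3 on each side of the threshold, and the 4 highest and 4 lowest pakerine ratios (the last 2 rules for genes of at least 5 CPM). Others were named after their values were seen, to account for every role. Exons, overlaps, repeats and promoters came from RefSeq TAIR10.1. Alternatives were other pseudocounts, scaling, a level filter, a counting-interval rule, a stricter threshold and, added after seeing the data, removal of members with repeats or overlaps.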

Additional observations from a re-analysis of the deposited data

How the results depend on the processing

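The size of the set depended on the settings. A pseudocount of 0.1 gave 151 genes, with all 63 members among them, and a pseudocount of 5 gave 22, all of them members and NIA1, ASN1, ASN2, BT1, MIOX4 and DELTA-TIP among them. A threshold of -1.5 gave 9 genes. Scaling each ratio to a median of 0 over the 11836 genes of at least 10 CPM removed shifts of -0.04 (Stress over DMSO) and -0.02 (Stress + Pakerine over Pakerine) and left 49 members. AGP21, ASN2, PIP3, GSTU20, CAT6, STY46 and AT5G22920 were among the 14 that it lost. A minimum of 1 CPM in DMSO and Pakerine and a counting interval below 0 each kept 63. The first could remove no member, because the rule itself requires at least 1 CPM in both groups. The second was applied to ratios already chosen at or below -1, so neither is a check of the set. Leaving out members with a repeated stretch or an overlapping gene kept 49.

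Cell cycle genes in the set numbered 1 (CYCB1;3) with a pseudocount of 0.1 and 0 under a pseudocount of 5, scaling and the stricter threshold. The median ratio of Stress + Pakerine to Stress over the members, -0.01, changed sign under scaling, to 0.0052. Under the other alternatives it stayed between -0.018 and -0.0095, and the median of Pakerine over DMSO stayed between 0.064 and 0.12. No paired analysis was possible because the results came from group means and no test. Leaving out a replicate was not run for the same reason. Depth limited AT4G33720, AT4G07820 and AT4G25580, whose lowest means rested on 24, 31 and 38 reads.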
